A study of Arabidopsis thaliana with 10 samples.

Results

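The transcripts described here are those of 10 Arabidopsis thaliana histone acetyltransferase genes, chosen by locus code. They are HAC1 (AT1G79000), HAC4 (AT1G55970), HAC5 (AT3G12980) and HAC12 (AT1G16710) of the p300/CBP type, HAG1 (AT3G54610), HAG2 (AT5G56740) and HAG3 (AT5G50320) of the GNAT type, HAM1 (AT5G64610) and HAM2 (AT5G09740) of the MYST type, and HAF1 (AT1G32750) of the TAF1 type. HAC1, HAC4, HAC12 and HAF1 lie on chromosome 1, HAC5 and HAG1 on chromosome 3, and HAG2, HAG3, HAM1 and HAM2 on chromosome 5. All 10 had a row of their own among the 33297 rows of the table. All 10 were also among the 18912 rows kept for comparison, which reached 1 FPKM in 2 or more of the 5 genotype columns. FPKM counts sequenced fragments relative to transcript length and to all mapped fragments of a library. Comparisons between columns also depend on how the columns are scaled, and for some members the sign of the difference from Col turned with the scaling.

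Whole 7-day-old seedlings of 5 genotypes were harvested 12 hours after lights-on. All were grown on 0.8% agar at 23 °C, with 16 hours of light and 8 hours of dark. The mutants were pwr (insertion line SALK_071811C), hda9 (SALK_007123), hos15 (the hos15-2 allele, SALK_064435) and the hda9 hos15 double mutant, which combines the same hda9 and hos15-2 alleles. They were set against the Columbia-0 wild type (Col), and each mutant genotype is 1 line. HDA9 is a histone deacetylase, and the study describes PWR and HOS15 as proteins bound to it. The labels list 2 libraries for each genotype, but the table holds 1 value per gene and genotype, so no value here has an error, no difference has a replicate check, and no test was possible. Differences are given as log2(FPKM + 1), mutant minus Col, a scale that makes the change of weakly expressed genes look smaller. Calls, higher or lower, require a 2-fold difference on this scale, so a gene just past 2-fold in FPKM can stay uncalled. All 4 comparisons with Col use one Col column, so they are not independent of one another.

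Histone acetyltransferases transfer acetyl groups from acetyl-CoA to lysines of the histone tails, the mark that deacetylases such as HDA9 remove, and acetylated chromatin is in general more open to transcription. Plants have several classes of these enzymes. GNAT and MYST enzymes mostly work as the catalytic subunits of large complexes, such as SAGA, Elongator and NuA4. The p300/CBP-type enzymes are large multidomain co-activators, and the TAF1 type belongs to the general transcription factor TFIID.

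Each targeted gene was low in its own mutant columns. HDA9 had 1.70 FPKM in hda9 and 1.76 in the hda9 hos15 plants, against 7.79 in Col. PWR had 2.18 FPKM in pwr, against 8.38 in Col, and HOS15 had 2.16 in hos15 and 1.89 in the hda9 hos15 plants, against 16.2 in Col. HOS15 was also low in pwr (3.17) and hda9 (4.37), whose labels name no HOS15 mutation. Column sums ran from 955700 FPKM in Col to 1326086 FPKM in pwr, and the read depth is unknown. All 3 shoot markers and all 5 root markers were above 1 FPKM in every column, while the flower and seed markers AP3, CRA1 and SESA3 were at or under 0.116 FPKM and PI lay between 0.934 and 1.17 FPKM. The shoot marker RBCS1A stood at 28352 FPKM in pwr, 23700 in hos15, 26011 in hda9 and 26663 in the double mutant, against 18640 in Col, and the part of such a shift in the differences from Col was not tested. In whole seedlings, fewer cells that use a gene and less RNA per cell cannot be told apart.

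HAF1, a relative of TAF1, the largest subunit of TFIID, was the 1 member that differed 2-fold from Col. It stood at 1.44 FPKM in pwr, 2.66 in hos15, 2.12 in hda9 and 2.29 in the double mutant, against 6.86 in Col. All 4 mutant values lay below the Col value, with pwr lowest and hos15 nearest to Col. The log2 differences were -1.69 in pwr, -1.10 in hos15, -1.33 in hda9 and -1.26 in the double mutant. In the order of the 10 levels from high to low, HAF1 took place 7 in Col, place 9 in hos15, hda9 and the double mutant, and place 10 in pwr.

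In each mutant, then, 1 of 10 members was lower and 0 of 10 were higher. Of all kept rows, 7.55% in pwr, 2.48% in hos15, 4.49% in hda9 and 3.91% in the double mutant were lower, and 1.94% in pwr, 1.23% in hos15, 1.99% in hda9 and 1.49% in the double mutant were higher. A count of 1 is the smallest above 0 that 10 members can give, so nothing about the group is read from it. Lower rows made up 79.6% of the rows past 2-fold in pwr, 66.9% in hos15, 69.2% in hda9 and 72.5% in the double mutant. That split moved with the scaling, to between 60.5% and 66.1% with median-ratio scaling, between 58.5% and 66.1% with quantile normalization, and between 82.9% and 95% with the columns rescaled to equal sums as described with HAG1. The rows with a difference below that of HAF1 numbered 408 in pwr, 343 in hos15, 405 in hda9 and 333 in the double mutant, of 18912 each time. At a 1.5-fold limit the members lower were 4 in pwr, 1 in hos15, 3 in hda9 and 2 in the double mutant, where 17.9% in pwr, 8.05% in hos15, 12.5% in hda9 and 13.3% in the double mutant of all kept rows were. Those added were HAC1 and HAC12 in pwr and hda9, HAG2 in pwr and HAC12 in the double mutant.

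**Figure D1:**
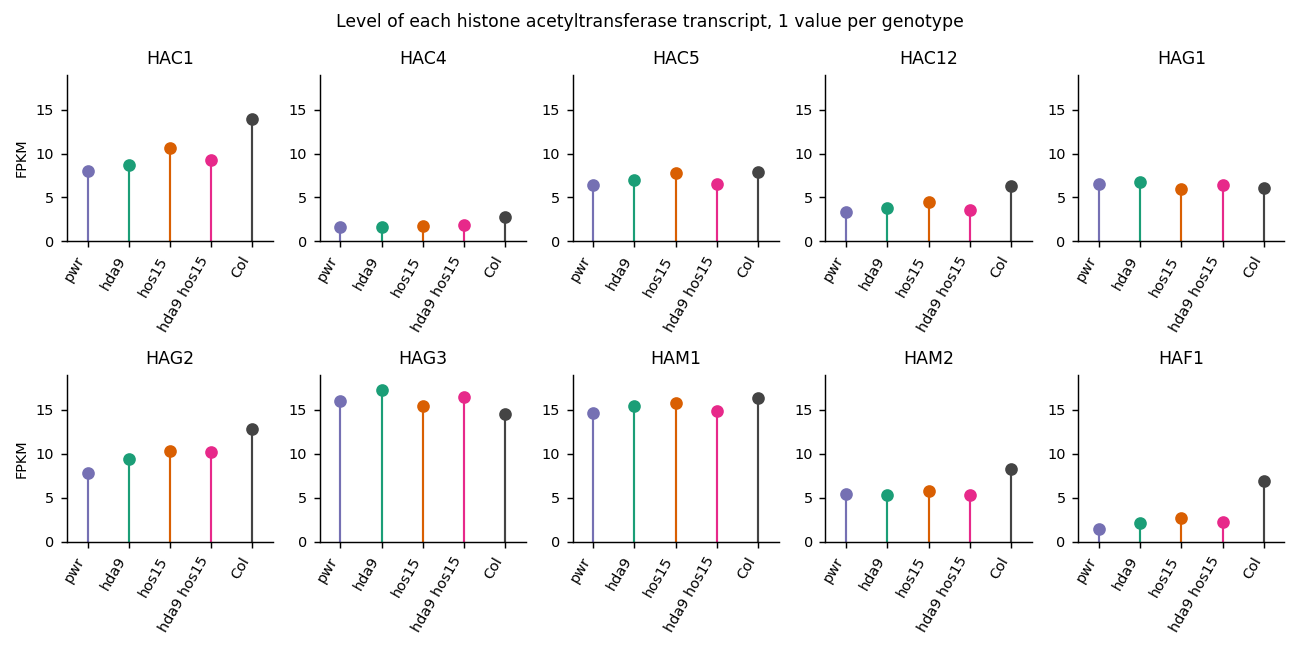
FPKM (vertical axis, from 0) of the 10 members in the columns of pwr, hda9, hos15, the hda9 hos15 double mutant and Col, 1 panel per gene and 1 point per column, with no error because each genotype has 1 value. HAF1 shows the widest gap as a ratio, with 1.44 to 2.66 FPKM in the mutants and 6.86 in Col. In FPKM the gap between pwr and Col is wider for HAC1, at 7.98 and 14.0. HAM1 lies between 14.7 and 16.4 FPKM throughout.

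The HAF1 transcript stands out among the members in its base composition. It is 57.0% purine (A + G), against a median of 50.6% over 18079 protein-coding genes, of which 2.37% have a higher share. Its purine-richest window of 100 bases holds 83 purines, and 1.68% of genes have a richer one. The purine-richest coding windows of HAF1, of HAC1, which differed less from Col, and of HAG1, which lay close to Col, are shown because differences from Col went with purine content over the whole table. Each is read 5′ to 3′ from the longest RefSeq transcript (TAIR10.1 annotation), with runs of at least 6 purines in capitals.
HAF1: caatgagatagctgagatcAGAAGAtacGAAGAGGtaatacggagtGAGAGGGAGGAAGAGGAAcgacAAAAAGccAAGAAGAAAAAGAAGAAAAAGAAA
HAC1: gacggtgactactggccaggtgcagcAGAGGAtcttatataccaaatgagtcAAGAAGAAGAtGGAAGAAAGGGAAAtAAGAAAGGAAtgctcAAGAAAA
HAG1: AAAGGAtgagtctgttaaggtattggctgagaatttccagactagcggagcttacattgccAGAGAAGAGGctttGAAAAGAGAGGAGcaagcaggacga
The HAF1 window covers bases 5428 to 5527 of the 6190-base transcript, and 61 of its 100 bases lie in such runs. The HAC1 window holds 72 purines and has 47 bases in runs, and the HAG1 window holds 66 purines and has 29 bases in runs. Over the whole transcript HAF1 has 117 such runs, or 18.9 per kilobase, against 13.0 in HAC1 and 12.0 in HAG1. HAM1 and HAM2, at 19.1 and 18.1 runs per kilobase, are close to HAF1 in this measure.

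Sequence-adjusted values are what remained of each log2 difference after the trends of all 18079 genes with purine share, purine-richest window, length and GC content were removed. For HAF1 they were -0.38 in pwr, -0.32 in hos15, -0.30 in hda9 and -0.41 in the double mutant. They kept their sign and were all within 2-fold. After this adjustment 0 of 10 members were lower or higher in any mutant. Of the protein-coding genes, 2.15% in pwr, 0.774% in hos15, 1.31% in hda9 and 1.19% in the double mutant were lower, and 1.59% in pwr, 0.99% in hos15, 1.71% in hda9 and 0.819% in the double mutant were higher.

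HAF1 overlaps 2 annotated genes on the opposite strand, AT1G32740 by 101 bases and a non-coding RNA gene by 180 bases, and the sources used here do not say whether counting used the strand. AT1G32740 stood between 1.27 and 1.52 FPKM in the mutants and at 1.65 in Col. HAF2, the close relative of HAF1, is not a member. It stood at 0.152 FPKM in pwr, 0.228 in hos15, 0.168 in hda9 and 0.165 in the double mutant, against 0.227 in Col, under the minimum for comparison in every column. The HAF1 and HAF2 coding sequences are 78.1% identical, and the longest exact stretch that their transcripts share is 54 bases.

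**Figure D2:**
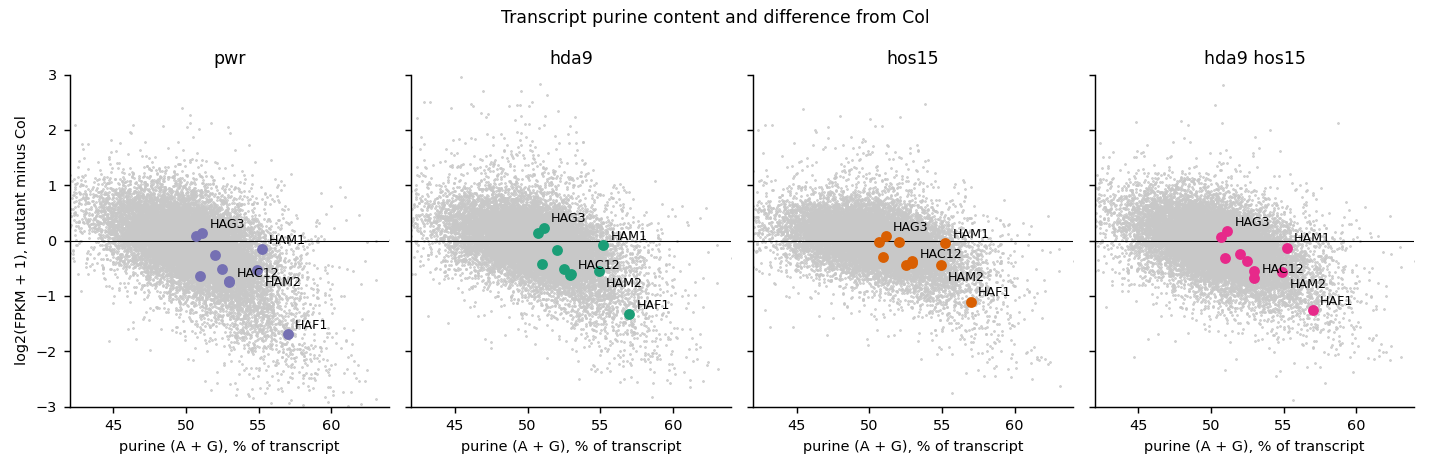
Purine share of the longest transcript (horizontal axis, percent) against the log2(FPKM + 1) difference from Col (vertical axis), 1 panel per mutant, with protein-coding genes in grey and the 10 members in colour. HAF1, at 57.0% purine, lies lowest among the members, and HAM1 lies well above it at 55.2%. Between 154 and 164 of the 18079 genes fall outside the axes in each panel.

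Across the 10 members, which share the same columns, Pearson's r between purine share and the difference from Col was -0.66 in pwr, -0.70 in hos15, -0.69 in hda9 and -0.74 in the double mutant. Over the 18079 genes it was -0.55 in pwr, -0.44 in hos15, -0.49 in hda9 and -0.49 in the double mutant. Over the 9 members other than HAF1 it was -0.28 in pwr, -0.35 in hos15, -0.40 in hda9 and -0.47 in the double mutant, nearer to 0 in every mutant than with HAF1 included. By ranks (Spearman), the 10 members gave -0.53 for purine share and -0.53 for transcript length in pwr. In hos15 these were -0.66 and -0.15, in hda9 -0.62 and -0.53, and in the double mutant -0.66 and -0.44. Over the 9 members they lay between -0.53 and -0.35 for purine share and between -0.40 and 0.05 for length. Whether the differences follow purine share or length was not tested.

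The p300/CBP-type genes HAC1, HAC4, HAC5 and HAC12 all stood below Col in all 4 mutants, none by 2-fold. HAC1, a co-activator whose loss delays flowering, stood at 7.98 FPKM in pwr, 10.6 in hos15, 8.73 in hda9 and 9.21 in the double mutant, against 14.0 in Col. HAC12, its closest paralog, stood at 3.32 FPKM in pwr, 4.48 in hos15, 3.77 in hda9 and 3.55 in the double mutant, against 6.29 in Col. For both genes every mutant value lay below Col, with pwr lowest and hos15 nearest to Col. The log2 differences of HAC1 were -0.74 in pwr, -0.37 in hos15, -0.62 in hda9 and -0.55 in the double mutant. For HAC12 they were -0.75 in pwr, -0.41 in hos15, -0.61 in hda9 and -0.68 in the double mutant.

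HAC4 was the most weakly expressed member in 4 of the 5 columns, pwr being the exception. It stood at 1.62 FPKM in pwr, 1.77 in hos15, 1.63 in hda9 and 1.92 in the double mutant, against 2.76 in Col, with log2 differences between -0.52 and -0.37. HAC5, known to act with HAC1 in immune signalling, lay closer to Col. Its level was 6.46 FPKM in pwr, 7.74 in hos15, 6.94 in hda9 and 6.58 in the double mutant, against 7.93 in Col. The log2 differences of HAC5 lay between -0.26 and -0.03, and quantile normalization turned them to 0.01 in pwr, 0.01 in hda9 and 0.10 in hos15. Median-ratio scaling put HAC5 at 0.00 in hos15.

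The level of HAC5 over that of HAC1 was 0.81 in pwr, 0.73 in hos15, 0.79 in hda9 and 0.71 in the double mutant, against 0.57 in Col. HAC5 thus took a larger part beside HAC1 in each mutant column than in Col. HAC12 over HAC1 differed less, at 0.42 in pwr, 0.42 in hos15, 0.43 in hda9 and 0.39 in the double mutant, against 0.45 in Col. Summed over the 4 HAC genes, the level was 19.4 FPKM in pwr, 24.6 in hos15, 21.1 in hda9 and 21.3 in the double mutant, against 31.0 in Col.

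The 4 HAC transcripts are 52.0% to 53.0% purine, above the median gene. With sequence adjustment, HAC1, HAC4 and HAC12 stayed below 0 in all 4 mutants, between -0.31 and -0.13, and HAC5 lay between -0.01 and 0.09. No pair of the 10 members shares an exact stretch of 50 bases. The longest is 40 bases between HAC1 and HAC12, whose coding sequences are 79.2% identical. The sources used here do not give the length of the reads.

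Among the GNAT-type genes, HAG3 stood above Col, HAG1 close to it and HAG2 below it, none by 2-fold. HAG3, also called ELP3 or ELO3, is the catalytic subunit of Elongator, a complex that modifies transfer RNA and is tied to transcript elongation. It stood at 16.1 FPKM in pwr, 15.4 in hos15, 17.2 in hda9 and 16.5 in the double mutant, against 14.5 in Col. HAG3 was the 1 member above Col in all 4 mutants, with log2 differences of 0.13 in pwr, 0.08 in hos15, 0.23 in hda9 and 0.17 in the double mutant. It overlaps a pseudogene on the opposite strand, AT5G50315, by 452 bases, and that row stood between 0.527 and 1.03 FPKM in the mutants and at 1.77 in Col.

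HAG1, known as GCN5, is the acetyltransferase of SAGA. It stood at 6.51 FPKM in pwr, 5.93 in hos15, 6.77 in hda9 and 6.40 in the double mutant, against 6.10 in Col. Only the hos15 value lay below Col, and the log2 differences ran from -0.03 in hos15 to 0.13 in hda9. The sign for HAG1 and HAG3 depended on the scaling of the columns. With the columns rescaled to equal sums without the row AT2G01021, a choice made after the data were seen, the median of all kept rows moved by -0.27 in pwr, -0.19 in hos15, -0.23 in hda9 and -0.25 in the double mutant, and all 10 members lay below Col in every mutant. With median-ratio scaling and with quantile normalization, which moved that median by 0.12 and 0.14 in pwr, HAG3 lay above Col in all 4 mutants, between 0.11 and 0.31. Quantile normalization put HAG1 above Col in all 4 mutants, at 0.39 in pwr, 0.13 in hos15, 0.35 in hda9 and 0.31 in the double mutant. In each mutant this was further from Col than HAG3 under the same scaling.

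HAG2 encodes a type B enzyme, of the kind that acetylates newly made histone H4 before it is built into chromatin. It stood at 7.84 FPKM in pwr, 10.3 in hos15, 9.38 in hda9 and 10.2 in the double mutant, against 12.9 in Col. All 4 mutant values lay below Col, with pwr lowest. The log2 differences were -0.65 in pwr, -0.29 in hos15, -0.42 in hda9 and -0.31 in the double mutant. HAG2 is 51.0% purine, close to the median gene, and its sequence-adjusted values were -0.42 in pwr, -0.21 in hos15, -0.29 in hda9 and -0.12 in the double mutant. In pwr this was the lowest adjusted value of the 10 members.

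The MYST-type paralogs HAM1 and HAM2, relatives of yeast Esa1 that acetylate histone H4 and can stand in for each other in gamete formation, lay at different distances from Col. HAM2 stood at 5.42 FPKM in pwr, 5.81 in hos15, 5.30 in hda9 and 5.27 in the double mutant, against 8.25 in Col. HAM1 stood at 14.7 FPKM in pwr, 15.8 in hos15, 15.5 in hda9 and 14.9 in the double mutant, against 16.4 in Col. Every mutant value lay below Col for both genes. The log2 differences of HAM2 were -0.53 in pwr, -0.44 in hos15, -0.55 in hda9 and -0.56 in the double mutant. Those of HAM1 were -0.15 in pwr, -0.05 in hos15, -0.08 in hda9 and -0.13 in the double mutant. The level of HAM2 over that of HAM1 was 0.37 in pwr, 0.37 in hos15, 0.34 in hda9 and 0.35 in the double mutant, against 0.50 in Col.

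HAM1 and HAM2 differ little in the composition of their transcripts, at 55.2% and 54.9% purine, shares that 5.95% and 7.10% of genes exceed, and both have 1338 coding bases. Their coding sequences are 84.1% identical. The longest stretch in which they agree exactly is shown in capitals, 5′ to 3′ from the same RefSeq transcripts, with 20 bases on each side in lower case. A read lying wholly within it would fit either copy, but the length of the reads is not given.
HAM1: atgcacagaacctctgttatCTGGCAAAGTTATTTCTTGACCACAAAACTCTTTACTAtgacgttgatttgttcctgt
HAM2: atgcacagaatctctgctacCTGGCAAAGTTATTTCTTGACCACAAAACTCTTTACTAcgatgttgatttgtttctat
The shared stretch is 38 bases long, at bases 947 to 984 of the HAM1 transcript and 833 to 870 of the HAM2 transcript. With sequence adjustment HAM1 lay above 0, at 0.40 in pwr, 0.23 in hos15, 0.30 in hda9 and 0.22 in the double mutant. HAM2 lay below 0, at -0.05 in pwr, -0.21 in hos15, -0.23 in hda9 and -0.26 in the double mutant. HAM1 overlaps an opposite-strand gene by 26 bases.

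**Figure D3:**
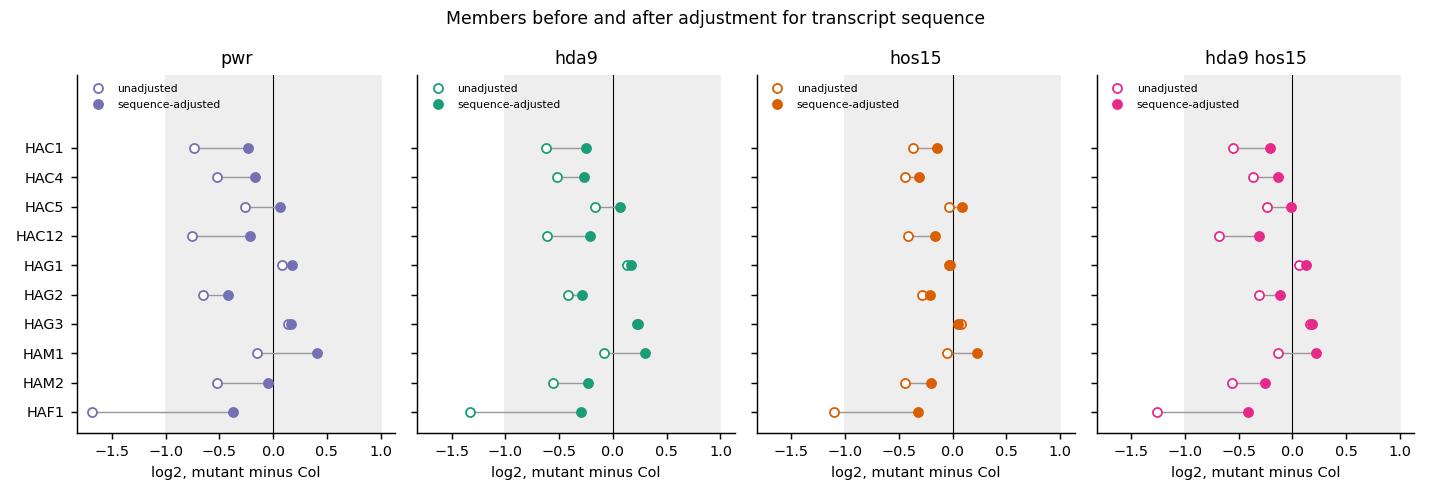
Log2 difference from Col (horizontal axis) of the 10 members, 1 panel per mutant, as open circles before and filled circles after adjustment for transcript sequence, with differences under 2-fold in the grey band. HAF1 is the 1 open circle outside the band and no filled circle lies outside it, HAM1 moves from just below 0 to between 0.22 and 0.40, and HAG3 hardly moves.

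Over all 10 members, 8 stood highest in Col and 7 stood lowest in pwr. In all 4 mutants 8 of 10 members lay below Col, 1, HAG3, lay above it, and HAG1 lay on either side. Of the 18912 kept rows, 10750 lay below Col in pwr, 9794 in hos15, 10147 in hda9 and 10696 in the double mutant. How many rows lay below Col in all 4 mutants, or stood highest in Col or lowest in pwr, was not counted. The median log2 difference of the 10 members was -0.52 in pwr, -0.33 in hos15, -0.47 in hda9 and -0.34 in the double mutant. Over all kept rows it was -0.09 in pwr, -0.01 in hos15, -0.04 in hda9 and -0.07 in the double mutant. The median of the members with sequence adjustment was -0.11 in pwr, -0.16 in hos15, -0.22 in hda9 and -0.13 in the double mutant, and 6 members lay below 0 in all 4 mutants and 2, HAG3 and HAM1, above it. The summed level of the 10 was 71.3 FPKM in pwr, 80.6 in hos15, 77.4 in hda9 and 76.8 in the double mutant, against 96.0 in Col. For the 3 HAG genes alone the sum was 30.4 FPKM in pwr, 31.7 in hos15, 33.4 in hda9 and 33.0 in the double mutant, against 33.5 in Col.

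In the 6 comparisons between mutants, which do not use the Col column, 0 of 10 members were past 2-fold in either direction. The share of all kept rows past 2-fold was 1.85% for the double mutant against hda9, 1.29% against hos15 and 1.2% against pwr, 0.74% for hda9 against hos15, 0.925% for hda9 against pwr and 1.2% for hos15 against pwr. The largest of the 60 member differences was that of HAF1 between hos15, at 2.66 FPKM, and pwr, at 1.44 FPKM, a log2 difference of 0.59 for hos15 minus pwr and 0.05 with sequence adjustment. Of the members, 8 were higher by value in hos15 than in pwr, the exceptions being HAG1 and HAG3. Most rows leaned the same way, with 11821 of the 18912 kept rows higher in hos15 than in pwr. HAC4 and HAM2 lay lower in hos15 with quantile normalization and with sequence adjustment. HAM1 lay lower with sequence adjustment, and HAG3 lay higher with the columns rescaled to equal sums. HAG2 stood 0.34 higher on the log2 scale in the double mutant than in pwr, and 0.30 higher with sequence adjustment.

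In the hda9 hos15 double mutant, the level lay between those of hda9 and hos15 for 5 members, HAC1, HAG1, HAG2, HAG3 and HAF1. It lay below both for HAC5, HAC12, HAM1 and HAM2, and above both for HAC4. Of the 18912 kept rows, 9300 were lower in the double mutant than in hda9, and 10978 were lower than in hos15. How many rows lay between, below or above both was not counted, so no pattern of the members is read from these positions. Some of these positions turned with the scaling: with median-ratio scaling and with quantile normalization, HAM2 lay above hda9 and HAG2 above hos15. With sequence adjustment HAG2 again lay above hos15, and HAF1 lay below both single mutants, at -0.11 on the log2 scale relative to hda9 and -0.09 relative to hos15. HAF1 was at 2.29 FPKM there, compared with 2.12 in hda9 and 2.66 in hos15. Relative to hda9 the log2 differences of the double mutant lay between -0.07 and 0.15, and relative to hos15 between -0.27 (HAC12) and 0.09 (HAG1).

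The genes most like HAF1 in their 4 differences from Col, by root-mean-square distance over kept protein-coding genes with a symbol, were DME, SIG2 and ATK5. DME, a DNA glycosylase gene, lay at a distance of 0.03 on the log2 scale, SIG2, a plastid sigma factor gene, at 0.06, and ATK5, a kinesin gene, at 0.06. DME stood at 1.87 FPKM in pwr, 3.43 in hos15, 2.64 in hda9 and 3.06 in the double mutant, against 8.43 in Col. These 3 transcripts are 54.4% to 55.3% purine, and 32 of 18168 genes lay within 0.1 of HAF1. For HAM1, the member that varied least, 1389 genes lay within 0.1, the nearest with a symbol being CCR1, emb1507 and PnsL1.

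Other acetyltransferases and the partner subunits of the members were followed in 4 lists of 41 genes. Of 4 acetyltransferases outside the members, HAC2 and HAF2 were below the minimum level in these seedlings. IDM1, which acetylates histone H3 and takes part in active DNA demethylation, stood at 2.48 FPKM in pwr, 4.34 in hos15, 3.08 in hda9 and 3.75 in the double mutant, against 7.09 in Col. It was past 2-fold lower in pwr, where 7.55% of all kept rows were, at a log2 difference of -1.22, and at -0.14 there with sequence adjustment. The log2 differences of IDM1 were -0.60 in hos15, -0.99 in hda9, just within 2-fold, and -0.77 in the double mutant. MCC1, a gene known to affect meiotic crossing-over, stood at 2.48 FPKM in pwr, 2.66 in hos15, 1.42 in hda9 and 2.21 in the double mutant, against 2.76 in Col. Its log2 difference was -0.63 in hda9 and -0.68 with adjustment.

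SAGA and ADA partners of HAG1 had 17 genes kept of 18, since ADA2B is in a row joined with another locus and was not used. Of the 17, 1 was lower in pwr, where 7.55% of all kept rows were. In the other mutants 0 were lower, beside 2.48% to 4.49% of all kept rows. None was higher in any mutant, beside 1.23% to 1.99% of all kept rows. The lower gene was SGF29b, a SAGA reader subunit, at 1.94 FPKM in pwr, 3.47 in hos15, 2.95 in hda9 and 3.36 in the double mutant, against 5.98 in Col. Its log2 differences were -1.25 in pwr, -0.64 in hos15, -0.82 in hda9 and -0.68 in the double mutant, and in pwr -0.52 with sequence adjustment. TAF12B, a TFIID subunit gene of lower purine content (48.9%), stood at 9.04 FPKM in pwr, 14.3 in hos15, 10.8 in hda9 and 11.8 in the double mutant, against 18.6 in Col. Its log2(FPKM + 1) difference in pwr was -0.96, within 2-fold on that scale though not in FPKM, and -1.07, past 2-fold, with sequence adjustment. The list median was -0.19 in pwr, -0.08 in hos15, -0.19 in hda9 and -0.20 in the double mutant.

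Of the 5 Elongator partners of HAG3, 0 were past 2-fold in any mutant, and the list median was 0.04 in pwr, 0.02 in hos15, 0.13 in hda9 and -0.01 in the double mutant. ELP4 had the largest difference, at 10.3 FPKM in pwr against 8.50 in Col, a log2 difference of 0.25. ELP6 came next, with 9.53 FPKM for the double mutant and 8.21 for Col. Of the NuA4 partners of HAM1 and HAM2, 13 of 14 were kept and 0 were past 2-fold, beside the same shares of all kept rows. Their list median was -0.17 in pwr, -0.08 in hos15, -0.04 in hda9 and -0.17 in the double mutant. MRG1, a chromodomain gene, had the largest difference, at 11.6 FPKM in pwr against 21.1 in Col, a log2 difference of -0.81, and 0.01 with sequence adjustment. YAF9a, a YEATS-domain gene, stood at 9.30 FPKM in pwr, 9.86 in hos15, 9.74 in hda9 and 11.2 in the double mutant, against 16.7 in Col. Its sequence-adjusted values lay between -0.55 and -0.28.

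**Figure D4:**
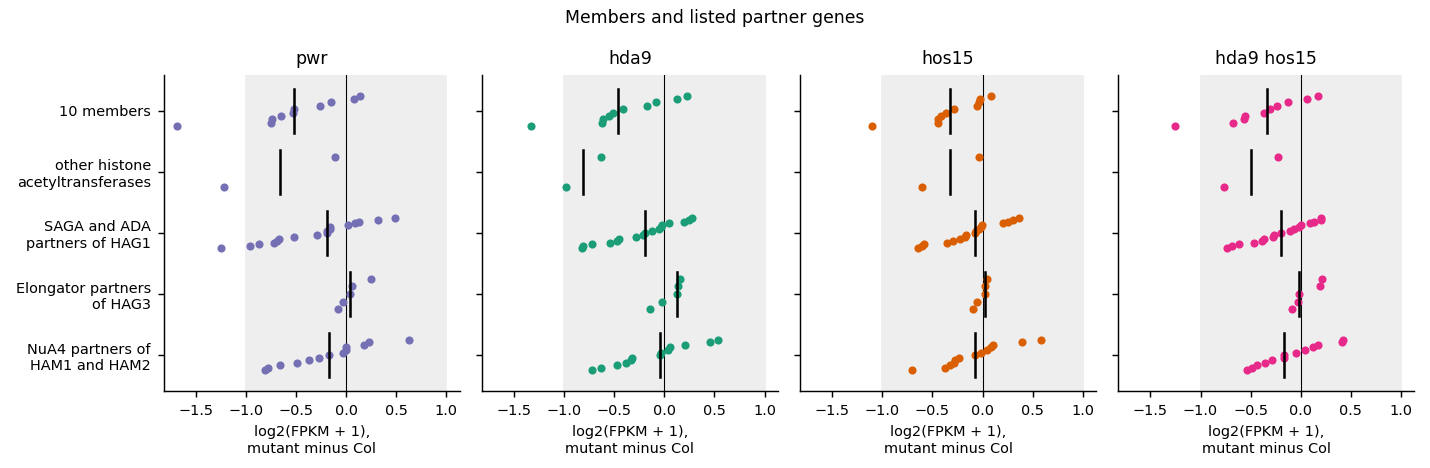
Log2(FPKM + 1) difference from Col (horizontal axis) of the 10 members and of the kept genes of the 4 lists, 1 panel per mutant and 1 point per gene, sorted by value within each list, with a bar at the median and differences under 2-fold in the grey band. Points outside the band are HAF1 in all 4 panels and IDM1 and SGF29b in pwr, while the Elongator genes lie between -0.14 and 0.25.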

How the data were processed

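RNA was measured in whole seedlings by stranded mRNA sequencing, with 2 libraries for each of 5 genotypes per the labels. The submitters' processing notes name the build TAIR10 and the tools TopHat2, Cufflinks and Cuffdiff, without versions, settings or roles. The authors deposited FPKM, 1 value per gene and genotype. Mutant columns name 2 libraries each, and the wild-type column, which names none, was used as Col. The sources used here do not say how libraries were combined, and the depth is unknown.

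Values were compared as log2(FPKM + 1), with calls at 2-fold, on rows reaching 1 FPKM in 2 or more of 5 columns. The linear model planned for single libraries could not be used. The members and lists were chosen with earlier results of these data known. All 10 members are named, and of each list the genes past 2-fold and the 2 with the largest difference. Likeness was measured for the members of widest and narrowest range.

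Symbols, products and transcripts came from the RefSeq annotation of TAIR10.1, matched by locus code. No coordinates are given, since the files' build is named TAIR10. Sequence adjustment took residuals on cubic splines (5 knots) of purine percentage, purine-richest 100-base window, log2 length and GC content of the longest transcript, for 18079 protein-coding genes of at least 300 bases, with scikit-learn 1.9.0. Procedures were tested on simulated data. Coding sequences were aligned with Biopython 1.88. Alternatives were other pseudocounts, filters, scalings and fold rules.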

Additional observations from a re-analysis of the deposited data

How the results depend on the processing

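No paired analysis was possible because the table gives 1 value per genotype, so single libraries could be neither left out nor blocked. With no filter, with a pseudocount of 0.1 and with median-ratio scaling, HAF1 was the 1 member lower in each mutant. The share of all rows lower there was 1.72% to 4.73% with no filter, 3.94% to 10.8% with that pseudocount and 2.22% to 6.12% with median-ratio scaling. The count of lower members was 0 in all 4 mutants with a pseudocount of 5 (HAF1 log2 differences -0.88 to -0.63), with sequence adjustment, and with a mean FPKM of at least 5, which removes HAF1, HAC4 and HAC12 from the genes compared. Of all rows compared, 0.682% to 2.74% were lower with a pseudocount of 5, and 1.44% to 5.5% with that mean. The member count was also 0 in hos15 with quantile normalization (HAF1 at -0.94), where 2.09% of rows were lower. At 3-fold it was 1 in pwr and 0 in hos15, hda9 and the double mutant, and 2.64% of rows were lower in pwr, 0.656% in hos15, 1.27% in hda9 and 0.82% in the double mutant. At 1.5-fold it was 4 in pwr, 3 in hda9 and 2 in the double mutant, and 1 member, HAF1, was higher in hos15 than in pwr, with a difference of 0.59 that only just passes, as were 6.43% of all rows. Rescaling to equal sums without AT2G01021, chosen after seeing the data, gave 3 lower members in pwr, with 12.8% of all rows lower there. No called member changed sign under any of these alternatives. Without replicates or depth, no difference, under 2-fold or past it, can be told from variation between libraries.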
